A study of Homo sapiens with 30 samples.

Results

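H3K4me3, histone H3 trimethylated at lysine 4, was profiled by chromatin immunoprecipitation sequencing (ChIP-seq) in parental MDA-MB-231 cells and in the SAP30 knockout line SAP30-KO1, with 2 libraries of each. These 4 libraries are 4 of the 18 with a peak list among the 30 samples of the series, and they were chosen by the antibody and the genotype in their labels. MDA-MB-231 is a mesenchymal-like, triple-negative breast cancer cell line. Both groups were grown in the same medium with serum and received no treatment, so the genotype is the only labelled difference. Per the study's methods, the knockout was made with CRISPR/Cas9 and was a mixture of several single-cell clones. No label says that the 2 libraries of a line came from separate cultures, so the spread between them may be technical.

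H3K4me3 marks nucleosomes at the start sites of active and poised genes, most of all at promoters rich in CpG dinucleotides, and it is found at lower levels at some enhancers. It is written by the MLL and SETD1 methyltransferase complexes and removed by demethylases of the KDM5 family. SAP30 is a subunit of the SIN3 histone deacetylase complex, best known as a corepressor. The study asked whether SAP30 also brings the methyltransferase MLL1 (gene KMT2A) to promoters, and the comparison of SAP30-KO1 with parental cells shows where H3K4me3 peaks were found with and without SAP30.

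Each deposited list gives the summits of the peaks called in 1 library, with a score. Summits of the 4 lists within 1000 bp of each other were joined into 22554 regions. A region was called a promoter region when it reached within 1000 bp of an annotated start site, and distal otherwise. A region or gene is called lost here when both parental lists and neither SAP30-KO1 list had a summit there, and gained when the reverse held. Lost and gained describe peak calls, and fewer cells with the mark cannot be told apart from less mark per cell. The depth of the libraries is unknown, so an absent peak means only that none was called at that depth.

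The upstream sequences of named promoters show the range of CpG content among them. Each is the 200 bases just before a start site within 1000 bp of the best summit. Where several sites qualified, the one with the lowest coordinate was used, which was not always the nearest. Each sequence is read 5′ to 3′ in the direction of the gene from GRCh37, with every CG in capitals. Lost promoters shown are those of MFAP2 (chr1:17307116-17307315, minus strand), ASRGL1 (chr11:62104720-62104919, plus strand) and PEAR1 (chr1:156863310-156863509, plus strand). They were among the best ranked in parental cells of those with no SAP30-KO1 summit within 5000 bp. The annotated gene itself began inside the window at MFAP2 and PEAR1.
MFAP2: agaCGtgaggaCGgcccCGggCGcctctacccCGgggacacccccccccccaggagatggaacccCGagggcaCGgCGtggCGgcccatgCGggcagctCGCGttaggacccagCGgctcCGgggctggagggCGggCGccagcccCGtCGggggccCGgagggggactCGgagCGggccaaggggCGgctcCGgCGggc
ASRGL1: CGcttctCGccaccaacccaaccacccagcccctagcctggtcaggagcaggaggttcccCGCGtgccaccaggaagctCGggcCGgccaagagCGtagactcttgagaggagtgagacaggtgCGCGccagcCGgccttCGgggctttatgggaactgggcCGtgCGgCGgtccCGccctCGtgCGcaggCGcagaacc
PEAR1: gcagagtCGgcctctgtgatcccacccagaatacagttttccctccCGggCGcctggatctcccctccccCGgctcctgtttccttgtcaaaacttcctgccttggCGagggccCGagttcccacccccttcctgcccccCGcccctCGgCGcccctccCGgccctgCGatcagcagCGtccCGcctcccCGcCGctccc
These windows held 24 CG pairs for MFAP2, 18 for ASRGL1 and 15 for PEAR1. The median was 16 over the 184 genes with a lost promoter peak, 19 over the 12531 coding genes with a peak in all 4 lists, 4 over the 6952 with a peak in none and 15 over all 20098. By these medians, lost promoters were nearer in CG content to promoters that kept the mark than to those without it in any list. Genes with a peak in none had no summit to choose a site by, so their outermost start site was used. The classes thus differ in how the site was chosen. BATF (chr14:75988612-75988811, plus strand) was the best-ranked gained promoter without a parental summit within 5000 bp. Its annotated gene also began inside the window.
BATF: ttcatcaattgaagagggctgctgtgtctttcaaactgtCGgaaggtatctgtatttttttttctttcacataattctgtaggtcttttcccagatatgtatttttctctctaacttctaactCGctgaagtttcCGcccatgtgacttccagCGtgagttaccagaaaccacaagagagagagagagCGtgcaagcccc
BATF had 5 CG pairs, and the median over the 21 genes with a gained promoter peak was 9. ADM2 (chr22:50919772-50919971, plus strand) and CLDN1 (chr3:190040236-190040435, minus strand), which the study followed, had a peak in all 4 lists.
ADM2: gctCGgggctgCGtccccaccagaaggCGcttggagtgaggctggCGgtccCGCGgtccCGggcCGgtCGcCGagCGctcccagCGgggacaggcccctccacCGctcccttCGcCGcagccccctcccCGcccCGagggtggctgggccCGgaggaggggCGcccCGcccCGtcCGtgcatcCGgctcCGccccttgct
CLDN1: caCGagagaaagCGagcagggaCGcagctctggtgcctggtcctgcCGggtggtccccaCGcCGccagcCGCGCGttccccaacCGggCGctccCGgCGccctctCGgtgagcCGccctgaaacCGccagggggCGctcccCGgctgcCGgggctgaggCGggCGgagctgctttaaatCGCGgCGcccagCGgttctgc
They held 24 CG pairs for ADM2 and 25 for CLDN1, no fewer than the 3 lost promoters shown.

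The parental lists had 24079 and 22393 summits, and the SAP30-KO1 lists had 20735 and 23350. These made 19774 and 19621 regions in parental cells and 17877 and 18430 in SAP30-KO1 cells. Both knockout libraries had fewer regions than both parental ones, with a ratio of the means of 0.922, and an exact two-sided permutation test gave p = 0.333, the smallest that 2 libraries against 2 can give. The difference lay mainly away from start sites. Distal regions numbered 5986 and 5909 in parental cells against 4573 and 4968 in SAP30-KO1 cells, a ratio of 0.802 (exact permutation p = 0.333). Promoter regions numbered 13788 and 13712 against 13304 and 13462, a ratio of 0.973 (exact permutation p = 0.333). The promoter share of regions was 69.7% and 69.9% in parental cells and 74.4% and 73.0% in SAP30-KO1 cells, so it was higher in both knockout libraries by 3.93 percentage points on average (exact permutation p = 0.333). This difference fell to 1.75 points with every list limited to the length of the shortest, and to 1.15 points in the better-ranked 50% of each list.

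Genes followed the same order. A summit within 1000 bp of a start site was found at 12943 and 12948 protein-coding genes in parental cells and at 12714 and 12750 in SAP30-KO1 cells. For long noncoding RNA genes, the counts were 4005 and 4006 against 3837 and 3863. In both gene classes the groups did not overlap (exact permutation p = 0.333 for each). Within promoter regions, the number of summits did not separate the lines. Among the promoter regions found in all 4 lists, the mean number of summits per region was 1.23 and 1.13 in parental cells and 1.17 and 1.29 in SAP30-KO1 cells (exact permutation p = 0.667). The best summit of a coding gene lay at a median of 193 and 197 bp downstream of its start site in parental cells and 207 and 183 bp in SAP30-KO1 cells, at the place of the first nucleosomes of the gene body.

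The markers of the cell line were present in both lines. All 8 genes listed as markers of mesenchymal-like basal breast cancer, among them VIM, CD44, AXL and ZEB1, had a promoter peak in all 4 lists. So did 11 of 15 luminal and epithelial markers, so these peaks alone do not tell mesenchymal-like from luminal cells. Peaks were in none of the 4 lists at 6 of 7 leukocyte markers, 4 of 5 endothelial, 6 of 8 fibroblast and 4 of 4 adipocyte markers, with PTPRC, CDH5, COL1A1 and ADIPOQ among those without one. The SAP30 promoter itself had a peak in every list, and these lists cannot show whether the protein was absent.

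In all, 16097 regions had a summit in all 4 lists, 12840 of them at promoters and 3257 distal. Of the 18182 regions in both parental lists, 1131 were lost, which is 6.22%. The 331 lost promoter regions were 2.47% of the promoter regions in both parental lists, and the 800 lost distal regions were 16.8% of the distal ones. Of the 16730 regions in both SAP30-KO1 lists, 210 were gained, 61 promoter and 149 distal, which is 1.26%. The 4 patterns with 1 library of each line give the same count for pairs that mix the lines, and they held 28 to 73 promoter regions and 107 to 221 distal regions each. The lost regions exceeded that range in both classes, and the gained regions lay inside it.

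**Figure D1:**
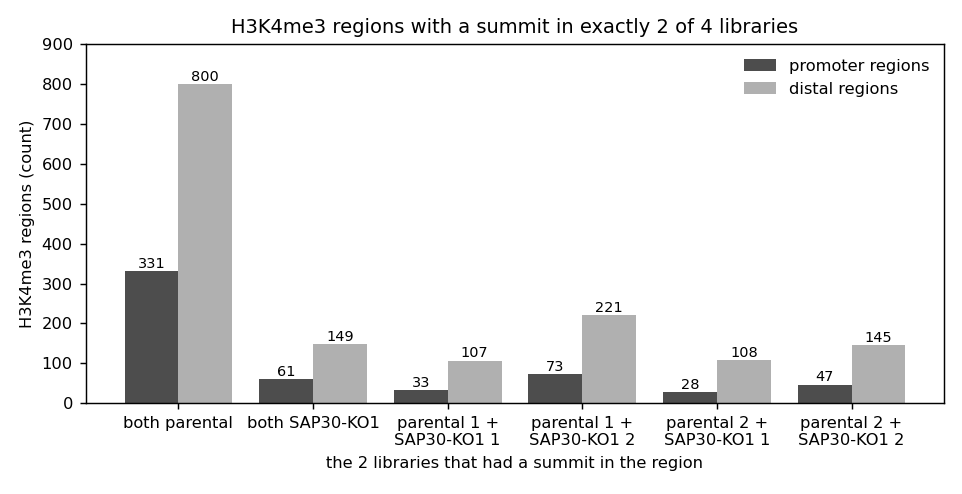
H3K4me3 regions with a summit in exactly 2 of the 4 libraries, by which 2 libraries they were (x axis) and split into promoter regions (dark bars) and distal regions (light bars), with the number of regions on the y axis. Regions of both parental libraries numbered 331 and 800, against 28 to 73 and 107 to 221 where 1 library of each line had the summit.

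A list of equal length changed this count. With each list limited to the number of summits of the shortest, 672 regions were lost and 235 gained. The counts thus depended on how far down each list reached, and losses outnumbered gains at either length. The balance turned among well-ranked peaks: where the lists with the region had it in their better-ranked 50%, 4 regions were lost and 13 gained. The 7 coding genes gained by that rule had their nearest parental summits 1064 to 2274 bp from a start site. NR2F6, the 1 gene lost, had SAP30-KO1 summits at 1062 and 1056 bp. At these genes the other line thus had a peak just outside the 1000 bp window.

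The lost regions were weak in parental cells. The rank of a summit is given here as a percentage of its own list, with 0 for the best score and 100 for the worst. The mean parental rank of lost promoter regions had a median of 81.4%, and that of lost distal regions a median of 86.2%, against 26.9% and 64.8% for promoter and distal regions in all 4 lists. Only 6 of the 331 lost promoter regions and none of the 800 lost distal regions ranked in the better 50% of the parental lists. When regions in both parental lists were divided into 10 equal bins by parental rank, 4 of the 10909 regions in the best 6 bins were lost. In bin 7 the share lost was 0.660%, and it was 3.69% in bin 8, 15.8% in bin 9 and 41.8% in bin 10. In bin 10 promoter and distal regions were lost at close shares, 42.9% and 41.4%. Promoter regions were lost more often than distal ones in bin 9, at 19.8% against 14.3%, and in bin 8, at 5.05% against 2.48%. The lower share of lost regions among all promoters was thus not found within these 3 bins, and promoters had the better ranks.

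**Figure D2:**
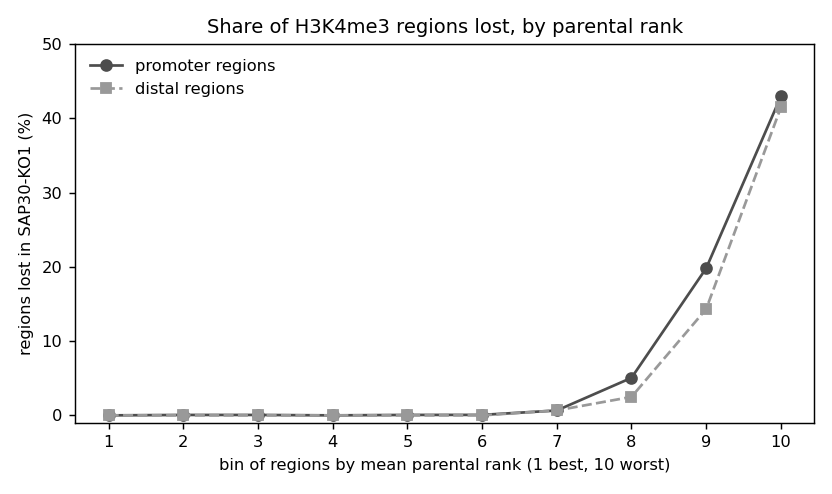
Percentage of H3K4me3 regions lost in SAP30-KO1 (y axis) in 10 equal bins of the regions in both parental lists, ordered by their mean parental rank (x axis, 1 best to 10 worst), for promoter regions (circles) and distal regions (squares). Both lines stay below 1% up to bin 7 and reach 42.9% and 41.4% in bin 10.

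Of the lost regions, 895 had no SAP30-KO1 summit within 5000 bp, which is 79.1% of them. Of the gained regions, 72 had no parental summit within 5000 bp, or 34.3%. Most gained regions thus lay beside a region that parental cells had, at a median distance of 2063 bp to the nearest parental summit, while lost regions lay at a median of 29177 bp from the nearest summit of SAP30-KO1. Introns held 436 of the lost regions and intergenic sequence 310, with 34 in exons, 18 in 3′ UTRs and 2 in 5′ UTRs. Introns took 38.6% of the lost and 10.3% of the regions in all 4 lists. Promoters took 29.3% and 79.8%, so these intron shares rest on unlike shares of distal regions. Of distal regions alone, 436 of the 800 lost and 1655 of the 3257 in all 4 lists were in introns, which are close shares. Base composition followed the class of region. In windows of 1001 bp, the median number of CG pairs was 51 in lost promoter regions and 76 in promoter regions of all 4 lists, and 20 and 33 in the distal classes. Among promoter regions of bin 10 by parental rank, those lost had a median of 39.5 and those in all 4 lists a median of 25. The lost promoters were thus not the poorer in CG within that bin, where ranks were not matched.

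H3K9Ac, acetylation of lysine 9 on the same histone, and RNA polymerase II (Pol II) were profiled in the same 2 lines and did not enter the choice of lost regions. At lost promoter regions, an H3K9Ac summit lay within 1000 bp of 42.6% and 40.8% in the parental libraries and of 26.9% and 25.1% in the SAP30-KO1 libraries. At lost distal regions the shares were 60.4% and 55.2% against 42.6% and 46.1%. In both classes all SAP30-KO1 libraries were below all parental libraries, by 15.7 and 13.4 percentage points on average (exact permutation p = 0.333 for each, the smallest possible). At promoter regions of all 4 lists, the H3K9Ac shares were 95.8% and 95.6% against 95.1% and 95.7%, and the groups overlapped. At distal regions of all 4 lists they were 85.9% and 84.8% against 83.6% and 85.3%, which also overlapped. These regions rank far better than the lost ones. Among promoter regions of bin 10 by parental rank, those in all 4 lists had H3K9Ac at 59.1% and 58.3% in parental cells and at 67.4% and 62.9% in SAP30-KO1 cells, higher by 6.44 points, and the lost ones at 44.3% and 41.5% against 34.7% and 31.2%, lower by 9.94 points (exact permutation p = 0.333 for each). In bin 10 of the distal regions, H3K9Ac was lower by 8.73 points at the lost regions, without overlap, and overlapped between the lines at those in all 4 lists. The fall was not limited to lost regions. At distal regions found in 1 library of each line, H3K9Ac was lower by 4.65 points in SAP30-KO1, without overlap (exact permutation p = 0.333). It overlapped at promoter regions of that kind and at gained promoter and distal regions.

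Pol II summits were rarer at lost regions. They lay at 16.9% and 21.5% of lost promoter regions in parental cells and at 9.67% in each SAP30-KO1 library, and at 12.5% and 17.4% of lost distal regions against 7.50% and 7.25%. Pol II was lower in both knockout libraries at regions of all 4 lists too, with 88.1% and 89.7% against 85.6% and 82.2% at promoters and 47.7% and 55.7% against 43.0% and 36.7% at distal regions. Lower Pol II in SAP30-KO1 was therefore not limited to the lost regions. At the gained promoter regions, Pol II stood at 60.7% and 55.7% in parental cells and 60.7% and 54.1% in SAP30-KO1 cells, so these regions carried Pol II in both lines and the groups overlapped.

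**Figure D3:**
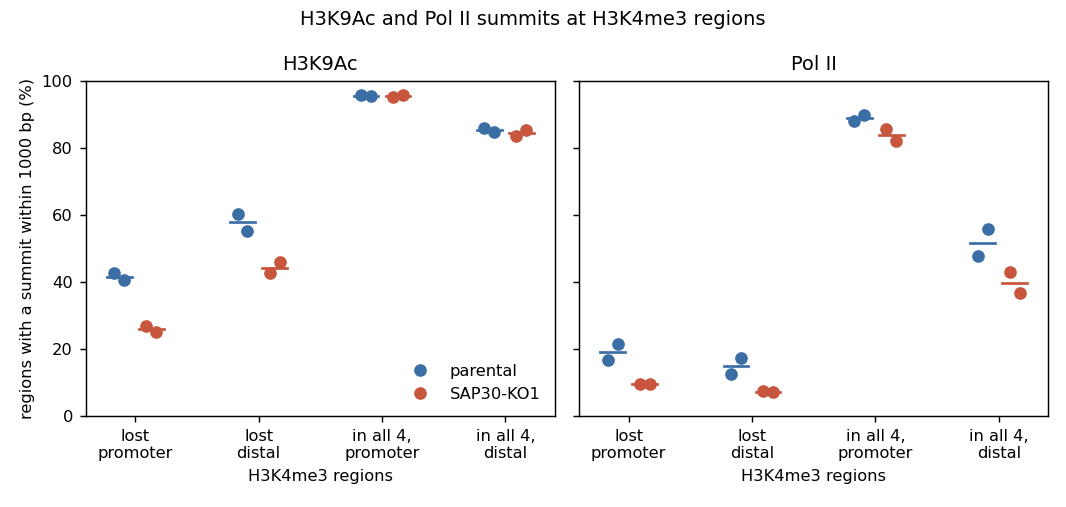
Percentage of H3K4me3 regions with an H3K9Ac (left) or Pol II (right) summit within 1000 bp, by class of region (x axis), with a point for each library and a line at the mean of the 2 libraries of parental (blue) and SAP30-KO1 (red) cells. H3K9Ac differs by 15.7 and 13.4 points at lost regions, while the lines overlap for H3K9Ac at regions of all 4 lists.

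SAP30 and its partners were mapped in parental cells only. SAP30 summits lay within 1000 bp of 43.2% and 36.0% of lost promoter regions, against 95.8% and 95.2% of promoter regions in all 4 lists. SIN3A was at 3.63% and 3.32% of lost promoter regions and SIN3B at 12.4% and 11.2%, against 54.4% and 52.7% for SIN3A and 82.4% and 80.5% for SIN3B at promoter regions of all 4 lists. Rank moved with these shares. Among promoter regions of all 4 lists in bin 10 by parental rank, SAP30 was at 59.1% and 53.8%, SIN3A at 5.30% in both libraries and SIN3B at 34.1% and 25.8%. Lost promoter regions of the same bin had SAP30 at 37.5% and 34.7%, SIN3A at 3.98% in both libraries and SIN3B at 13.1% and 13.6%. SAP30 and SIN3B were thus rarer at the lost promoters in both libraries within this bin too. The bin spans mean parental ranks from 80.5% to 99.7%, and ranks were not matched inside it.

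A promoter peak was lost at 184 protein-coding genes, 1.43% of the 12825 with one in both parental lists, and at 124 long noncoding RNA genes. A promoter peak was gained at 21 coding genes, 0.166% of the 12619 with one in both SAP30-KO1 lists, and at 19 long noncoding RNA genes. The 4 patterns with 1 library of each line held 12 to 21 coding genes and 13 to 25 long noncoding RNA genes. Among the 184 coding genes, 158 had no SAP30-KO1 summit within 5000 bp of any start site. H3K9Ac was within 1000 bp of a start site at 54 and 56 of the 184 in the parental libraries and at 31 and 26 in the SAP30-KO1 libraries. Pol II was at 26 and 27 against 14 and 13. At the 12531 coding genes with a peak in all 4 lists, H3K9Ac was at 96.9% and 96.7% against 96.4% and 97.0%. Pol II was lower in SAP30-KO1 there too, at 91.3% and 92.8% against 89.3% and 86.2%.

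The 12 of the 158 with the best parental ranks lay at 51.8% to 65.7% of the parental lists, that is, in the weaker parts of both. MFAP2 (ENSG00000117122, chr1:17300997-17307127), a protein of elastic microfibrils, ranked at 53.4% and 51.8% in parental cells, and the nearest SAP30-KO1 summits were 17276 and 17309 bp from its start sites. ASRGL1 (ENSG00000162174, chr11:62104920-62160884), an asparaginase and isoaspartyl peptidase, ranked at 55.7% and 54.9%. ENG (ENSG00000106991, chr9:130577292-130616937), the TGF-beta co-receptor endoglin, ranked at 54.7% and 57.4%, with SAP30-KO1 summits no nearer than 7907 bp. Endoglin was the 1 of the 12 with H3K9Ac and Pol II summits in each parental library but none in SAP30-KO1 cells.

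PEAR1, a receptor of platelets and endothelial cells, ranked at 60.5% and 58.0%, and DAPK1, a kinase that promotes cell death, at 61.8% and 59.7%. SORL1, a sorting receptor, ranked at 64.4% and 63.7%, and SEMA3E, a secreted guidance factor that acts on vessels through plexin D1, at 64.7% and 64.0%. No SAP30-KO1 summit lay within 65499 bp of SORL1 or within 485888 bp of SEMA3E start sites. RASGEF1C, PRSS22, ACY3, the purine receptor gene P2RY1 and the scavenger receptor gene SCARA3 completed the 12. SAP30 was called in both parental libraries at 7 of the 12: MFAP2, ENG, RASGEF1C, DAPK1, PRSS22, ACY3 and SEMA3E. Over all 184 lost genes, SAP30 was at 40.8% and 27.7% in parental replicates 1 and 2. It was at 96.9% and 96.5% of the 12531 coding genes with a peak in all 4 lists.

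Further lost genes were picked out after their values were seen, for what they encode, and they stand for no group. Of the 15 luminal and epithelial markers listed, 11 had a peak in all 4 lists and 1 was lost, and the MAGE family also held a gained gene, MAGEE2. CLDN3, a tight junction claudin, ranked at 64.5% and 65.1% in the parental lists, and the protease gene ST14 (matriptase) at 74.0% and 70.7%. LAMB1, a laminin chain, ranked at 65.5% and 64.9%. None of these 3 genes had a SAP30-KO1 summit within 5000 bp of a start site. The cancer-testis genes MAGEC1, MAGEC2, MAGEA12 and CSAG1 on chromosome X were lost as well, MAGEC1 at 63.7% and 66.2% and MAGEC2 at 92.1% and 92.6%. MAGEA12 and CSAG1, which point away from each other, were counted from the same summits. The best of these ranked at 74.8% and 75.1%, and they lay 139 and 83 bp downstream of a MAGEA12 start site.

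The 21 gained genes were of 2 kinds. At 15 of them a parental summit lay within 5000 bp of a start site, most just outside the 1000 bp window. PHLDA1, a pleckstrin homology protein induced by stress and growth signals, ranked at 2.25% and 5.95% in SAP30-KO1 cells, while the nearest parental summits were 1064 and 1079 bp from its start sites. EFNB2, the ligand ephrin B2, and CCN1, a matricellular angiogenic factor, were of the same kind, with parental summits at 1178 and 1348 bp. At the other 6 no parental summit lay within 5000 bp. BATF (ENSG00000156127, chr14:75988798-76013336), an AP-1 family transcription factor of lymphocytes, ranked at 76.3% and 68.9% in SAP30-KO1 cells, and the nearest parental summit was 55730 bp away. CST1 (ENSG00000170373, chr20:23728199-23731905), a secreted cysteine protease inhibitor, ranked at 70.7% and 78.5%. BATF had H3K9Ac in both SAP30-KO1 libraries and in neither parental library, and CST1 in both SAP30-KO1 libraries and 1 parental library. PCDHB1, BEX5, TBX22 and MAGEE2, 3 of them on chromosome X, ranked between 78.7% and 95.0%, with no H3K9Ac or Pol II summit in any library.

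The 3 lost and 3 gained distal regions named are those with the best ranks among regions with no summit of the other line within 5000 bp. The lost distal region at chr11:85393778-85393796, in an intron 3442 bp from a start site of CCDC89, ranked at 55.2% in both parental lists (55.25% and 55.18%). It had H3K9Ac in each parental library alone. The same held at the other 2, intergenic regions at chr13:88506985-88507012 and chr4:183736673-183736696, where Pol II was also called in both parental libraries alone. Of the 3 gained distal regions, the one at chr10:24544561-24544564, in an intron of KIAA1217, ranked at 66.5% and 64.4% in the SAP30-KO1 lists and had H3K9Ac in both SAP30-KO1 libraries and in no parental library. The region at chr12:52680826-52681754, near the hair keratin gene KRT81, had H3K9Ac in all 4 libraries, and Pol II in both SAP30-KO1 libraries and in neither parental library. The third, intergenic at chr5:25083583-25083604, had neither mark in any library.

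Where all 4 lists had a region, its rank among the 16097 such regions was compared between lines, again with 0 as the best and 100 as the worst. The median rank change, SAP30-KO1 minus parental, was 0.04 points over all regions, 0.09 at promoters and -0.06 at distal regions. The rank change had an SD of 8.54 points between the lines, and 7.69 and 7.91 points when 1 library of each line stood on either side. At distal regions the SD was 4.87 between the lines against 3.51 and 3.68, and at promoters 9.24 against 8.42 and 8.66. By limma's moderated test with Benjamini-Hochberg adjustment over the 16097 regions, 0% passed an adjusted p of 0.05 in either direction, and the smallest adjusted p was 0.449. At an unadjusted p under 0.05 there were 750 regions with a better rank in SAP30-KO1 and 710 with a worse one. The test thus called no single region, and what follows describes ranks that did or did not overlap between the lines. Ranks were worse in both SAP30-KO1 libraries than in both parental ones at 3400 regions, 21.1% of all, and better at 3200, or 19.9%.

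The study followed 6 genes as coactivated by SAP30 and SIN3 (ADM2, CLDN1, NOTCH3, PDGFB, PDGFD and RDX) and 3 as corepressed (ARTN, HSPA6 and IPO13), and measured H3K4me3 at them in the same lines, so their direction here is not independent evidence. At 5 of the 6 coactivated genes, both SAP30-KO1 ranks were worse than both parental ranks, where 21.1% of all regions did so. CLDN1 (ENSG00000163347), a tight junction protein, ranked at 48.5 and 46.5 in parental cells and at 71.1 and 67.5 in SAP30-KO1 cells, 21.8 points worse on average. ADM2 (ENSG00000128165), the peptide adrenomedullin 2, ranked at 76.8 and 71.1 against 87.0 and 88.9, 14.0 points worse. PDGFD (ENSG00000170962), a platelet-derived growth factor, ranked at 65.7 and 66.6 against 75.8 and 77.1, 10.3 points worse.

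PDGFB (ENSG00000100311), another ligand of that family, ranked at 83.0 and 88.9 in parental cells and at 89.97 and 96.44 in SAP30-KO1 cells. Parental replicate 1 had no PDGFB summit within 1000 bp of the start site, with the nearest at 1398 bp, while both SAP30-KO1 lists had one, so the peak call near the start site went against the worse rank of the joined region. NOTCH3 (ENSG00000074181), a Notch receptor, ranked at 77.3 and 75.5 against 81.4 and 84.2. Their differences were 7.28 and 6.41 points, close to the spread between the 2 libraries of a line for PDGFB. RDX (ENSG00000137710), the cytoskeletal linker radixin, ranked at 25.7 and 2.11 in parental cells and at 17.6 and 44.3 in SAP30-KO1 cells, so its groups overlapped. It was 17.0 points worse on average, from 3.53 to 29.6 with 1 library left out. None passed limma's test, with unadjusted p from 0.0101 (CLDN1) to 0.249 (RDX) and adjusted p from 0.449 to 0.766.

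The corepressed genes differed among themselves. ARTN (ENSG00000117407), the neurotrophic factor artemin, ranked at 72.7 and 70.2 in parental cells and better, at 58.6 and 56.1, in SAP30-KO1 cells, a difference of 14.1 points (limma unadjusted p = 0.0341, adjusted p = 0.504). HSPA6 (ENSG00000173110), an inducible Hsp70 chaperone, ranked at 56.1 and 42.8 against 54.7 and 51.5, and the groups overlapped. IPO13 (ENSG00000117408), the nuclear transport receptor importin 13, ranked at 42.5 and 35.5 against 12 and 46.9, and also overlapped. The SAP30 promoter ranked at 16.7 and 30.4 in parental cells and at 30.3 and 42.8 in SAP30-KO1 cells, where the better knockout library stood level with the worse parental one.

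**Figure D4:**
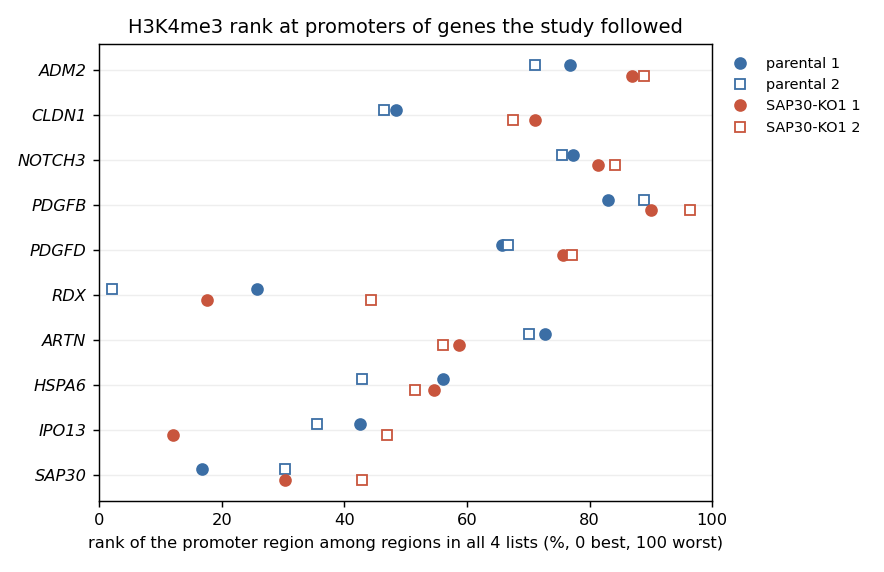
Rank of the H3K4me3 promoter region among the regions of all 4 lists (x axis, 0 best to 100 worst) for the genes the study followed and SAP30, with parental libraries in blue and SAP30-KO1 libraries in red (filled circles replicate 1, open squares replicate 2). The colours are apart for ADM2, CLDN1, NOTCH3, PDGFB, PDGFD and ARTN and overlap for RDX, HSPA6, IPO13 and SAP30.

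PDGFD and RDX lie on the long arm of chromosome 11, which stood apart from the other arms. The 557 regions of that arm in all 4 lists had median ranks of 41.6 and 42.5 in parental cells and 51.0 and 52.5 in SAP30-KO1 cells. Their median rank change was 6.28 points, and 47.2% of them had worse ranks in both SAP30-KO1 libraries, against 21.1% of all regions. The next highest median among the 41 arms with at least 50 regions was 3.29 points, on the long arm of chromosome 16. The same arm of chromosome 11 stood highest for H3K9Ac, at 7.85 points, and for Pol II, at 11.04 points. At the other end, the long arm of chromosome X had a median of -4.31 points, with 47.9% of its 309 regions better in both SAP30-KO1 libraries. The part of the arm in the values of PDGFD and RDX was not tested.

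**Figure D5:**
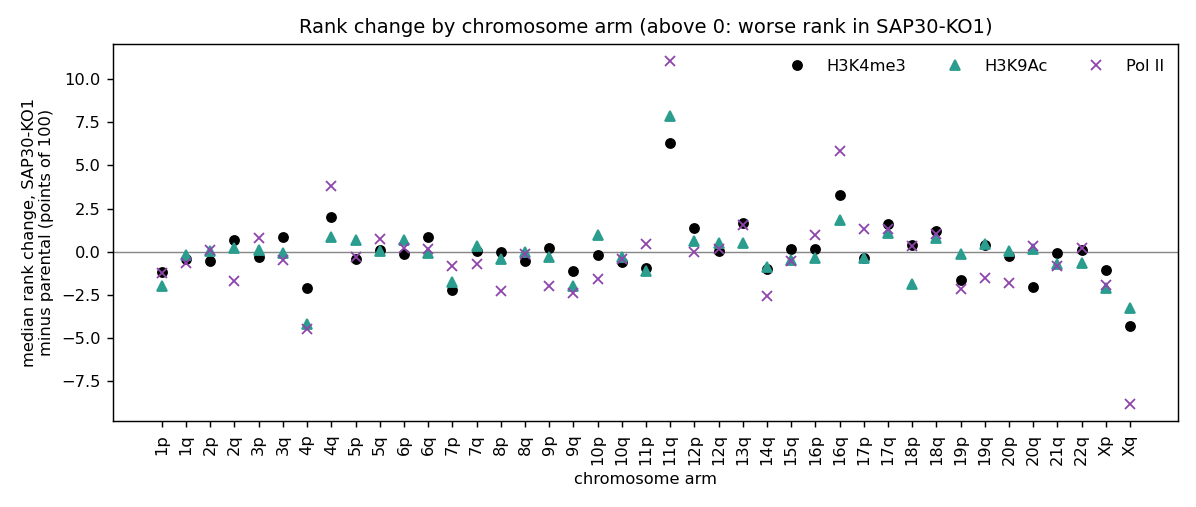
Median change of rank, SAP30-KO1 minus parental in points of 100 (y axis, above 0 worse in SAP30-KO1), of the regions in all 4 lists on each chromosome arm (x axis) for H3K4me3 (circles), H3K9Ac (triangles) and Pol II (crosses). The long arm of chromosome 11 stands highest for all 3, at 6.28, 7.85 and 11.04 points.

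The arm held 53 of the 1131 lost regions, 8.18% of its regions in both parental lists, and shares over the arms ran from 3.35% on the short arm of chromosome X to 11.1% on the short arm of chromosome 5. Lost regions were thus spread over the genome. The largest rank changes, picked after the values were seen, included regions of that arm as well. Of the 274 regions that were worse by at least 20 points with no overlap, 53 lay there, and of the 277 that were better by as much, 1 did. The promoter shared by CEP57 and FAM76B (chr11:95522472-95522499) ranked at 1.38 and 0.74 in parental cells and at 38.3 and 30.8 in SAP30-KO1 cells. CEP57 is a centrosomal protein. Off that arm, the promoter of TRIM37, a ubiquitin ligase gene on chromosome 17, ranked at 8.04 and 8.29 against 50.6 and 40.0. The largest changes to a better rank were at the divergent promoter of MORN5 and NDUFA8, a subunit of respiratory complex I, at 48.1 and 41.9 in parental cells against 3.24 and 4.55 in SAP30-KO1 cells, and at the decoy receptor gene TNFRSF10D, at 43.98 and 50.32 against 12.2 and 2.91. PTGES, which makes prostaglandin E2, ranked at 51.8 and 49.4 against 5.88 and 18.2.

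The genes of the H3K4 methyltransferases and demethylases, and of the SIN3 complex itself, kept their promoter peaks. All 19 genes of the H3K4 methyltransferase complexes, 5 H3K4 demethylases and 20 SIN3 complex subunits had a peak in all 4 lists. Over all 12591 coding genes with a ranked region, 19.9% ranked worse and 18.6% better in both SAP30-KO1 libraries, and these shares are the background for each list. Among the methyltransferase genes, 5 ranked worse and 3 better, 26.3% and 15.8%, with a median change of 4.13 points against 0.07, so the counts were near the background. KMT2A, which encodes MLL1 and lies on the long arm of chromosome 11, ranked at 0.47 and 3.84 in parental cells and at 9.97 and 25.8 in SAP30-KO1 cells. HCFC1, a subunit of several of these complexes, ranked better, at 40.7 and 39.6 against 12.3 and 17.9, and lies on the long arm of chromosome X. None of the 5 demethylase genes had ranks that separated the lines. KDM5A, KDM5B and KDM5C encode enzymes that act on trimethylated lysine 4, and KDM1A (LSD1) and KDM1B enzymes that act only on its mono- and dimethylated forms.

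Among the SIN3 subunits, 5 ranked worse and 3 better, 25% and 15%, again near the 19.9% and 18.6% of all coding genes. SAP30L, the paralog of SAP30, ranked at 2.86 and 5.75 in parental cells and at 18.5 and 41.4 in SAP30-KO1 cells, and the scaffold SIN3A at 3.15 and 4.88 against 9.81 and 34.5. The other scaffold, SIN3B, went the other way, from 32.1 and 28.8 to 7.17 and 2.13. HDAC2, a deacetylase of the complex, ranked at 7.10 and 3.02 against 19.5 and 25.8, while HDAC1 overlapped, at 1.04 and 4.36 against 4.26 and 18.0. The 2 scaffold and the 2 deacetylase genes were thus not alike in rank change.

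Of 35 ligands and receptors of blood and lymph vessel growth, 24 had a promoter peak in all 4 lists and 8 had one in none, among them FLT1, FLT4 and TEK. Of the 26 with a ranked region, 11 ranked worse and 3 better in both SAP30-KO1 libraries, 42.3% and 11.5%, against 19.9% and 18.6% of all 12591 coding genes with one. The median change was 3.87 points against 0.07. The list holds 4 of the study's coactivated genes, which are among the 11. The 42.3% thus rests partly on genes that the study had already chosen, and it is not independent evidence. Of the rest, VEGFC, the main growth factor of lymphatic vessels, ranked at 8.04 and 7.34 in parental cells and at 26.1 and 27.3 in SAP30-KO1 cells. PDGFC, another PDGF ligand, ranked at 34.3 and 17.9 against 40.0 and 39.7, and the receptor gene PDGFRB at 87.6 and 88.5 against 97.9 and 98.8. VEGFA, the main growth factor of blood vessels, did not separate, at 27.8 and 6.62 against 2.95 and 11.2. PGF, placental growth factor, ranked better, at 61.7 and 45.9 against 42.5 and 31.5. EFNB2 and CCN1, named above, were the gained members of the list.

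Cytokine and chemokine genes had a promoter peak in all 4 lists at 11 of 26 and in none at 11. CXCL8, the neutrophil chemokine interleukin 8, was the 1 lost member, at 81.6% and 86.2% of the parental lists, and the nearest SAP30-KO1 summits were 120084 and 120137 bp away. Over all genes, 1.43% of those with a peak in both parental lists were lost. Of the 11 ranked, 5 were worse and 2 better, 45.5% and 18.2%, against 19.9% and 18.6% of all coding genes. CXCL1 ranked at 58.7 and 59.1 in parental cells and at 69.5 and 69.6 in SAP30-KO1 cells, and CSF1, the macrophage growth factor, better, at 34.0 and 5.91 against 1.63 and 4.27. Of 41 collagen genes, 16 had a peak in all 4 lists and 22 in none. COL6A2 and COL24A1 were lost, COL6A2 at 66.5% and 72.5% and COL24A1 at 87.2% and 79.5% of the parental lists. Of the 16 ranked collagen genes 7 were worse and 3 better, 43.8% and 18.8% against the same background. These counts include 3 pairs of type IV collagen genes that share a promoter and so a rank.

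Of 35 ranked interferon-stimulated genes, 4 were worse and 10 better, 11.4% and 28.6%, against 19.9% and 18.6% of all coding genes, with a median change of -1.67 points against 0.07. OAS1, a sensor of double-stranded RNA, ranked at 93.4 and 94.9 in parental cells and at 74.7 and 77.7 in SAP30-KO1 cells, while its neighbour OAS3 ranked at 36.3 and 33.0 against 53.8 and 51.5. Both directions were thus found within 1 gene cluster. Of 36 ranked cell motility genes 7 were worse and 7 better, which is 19.4% each way and level with the background. MSN, the cytoskeletal linker moesin and a paralog of RDX, was among the better, at 21.0 and 36.7 against 2.02 and 1.87, on the long arm of chromosome X. The actinin gene ACTN1 and VCL, encoding vinculin, were also better, and MET, a receptor tyrosine kinase, and NF2, encoding merlin, were worse.

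Of 74 ranked cytosolic ribosomal protein genes, 18 were worse and 11 better, 24.3% and 14.9%, near the 19.9% and 18.6% of all coding genes, with a median change of 0.69 points. Of 216 ranked zinc finger genes of chromosome 19, 28 were worse and 34 better, 13.0% and 15.7%, both below the background. ZNF492 and ZNF575 were lost, where 1.43% of all genes with a peak in both parental lists were. Of 39 HOX genes 29 had a peak in none of the lists. Of the 7 ranked, 2 were better and 0 worse, 28.6% and 0%, against 18.6% and 19.9% of all coding genes. The better ones were HOXC4 and HOXD4, with small changes of -1.16 and -6.24 points. Of 15 luminal and epithelial marker genes, 11 had a peak in all 4 lists. Of these 11, 3 were worse and 4 better, 27.3% and 36.4%, against the same background of 19.9% and 18.6%. CDH1, the E-cadherin gene, was the 1 lost, at 89.9% and 67.0% of the parental lists, a wide spread between the 2 libraries, and its nearest SAP30-KO1 summits were 91415 and 91251 bp from the start site. KRT19, an epithelial keratin, ranked at 26.7 and 13.8 in parental cells and at 39.8 and 41.7 in SAP30-KO1 cells, and SPDEF, an epithelial transcription factor, better, at 81.8 and 81.9 against 71.3 and 72.9.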

How the data were processed

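The 4 H3K4me3 ChIP-seq libraries were grouped by the genotype in their labels. Per the submitters' processing notes, FastQC 0.11.2, Bowtie2 2.3.3.1, Picard and MACS2 2.1.0 were used with the hg19 build. The authors called summits in each library by itself, and each deposited score is the −log10 of a q-value, with a lowest value of 1.31. The control and MACS2 options are not given in the sources used here, depth is unknown, and scores depend on depth and enrichment. Scores were therefore used only as ranks within a list. The members and gene lists were chosen with earlier results of these data known.

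Summits on the autosomes and chromosome X within 1000 bp were joined. Start sites were those of basic protein-coding and lncRNA transcripts of GENCODE 44 lifted to GRCh37, and sequence came from GRCh37. Normal scores of ranks were tested with limma 3.58.1 in R 4.3.3 without a block, after a check on simulated data. Single values per library were compared by an exact permutation test. The genes named were those the study followed, the 12 lost and up to 12 gained genes with the best mean rank and no summit of the other line within 5000 bp, and lost or gained list members. Alternatives were other joining distances, shorter lists, protein-coding start sites, another scale, a replicate block and leaving out each library. The replicate numbers were not treated as pairing the libraries. Differences between replicates 1 and 2 correlated at -0.016 between the lines, which cannot show whether the libraries were prepared in pairs.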

Additional observations from a re-analysis of the deposited data

How the results depend on the processing

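Losses outnumbered gains under every alternative run except 1, but both counts moved. With summits joined within 500 bp there were 513 regions and 72 genes gained, and within 3000 bp 78 and 8. The better-ranked 50% of each list left 273 regions lost and 26 gained, and lists limited to the shortest left 672 lost. Requiring no summit of the other line within 5000 bp left 72 regions and 6 genes gained. Requiring the present summits to be in the better-ranked 50%, with absence judged on whole lists, left 4 regions and 1 gene lost against 13 regions and 7 genes gained. This reverses the balance among well-ranked peaks. All 8 of these genes had a summit of the other line within 2274 bp of a start site, just outside the 1000 bp window. Leaving out each library in turn, with fewer lists to meet, gave 1588 to 2116 regions lost, 378 to 1024 gained, 228 to 257 genes lost and 43 to 62 gained. The difference in summits per promoter region ran from -0.015 to 0.102 and turned negative without parental replicate 2 (-0.0048) and without SAP30-KO1 replicate 2 (-0.015).

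For rank change, log10 scores with quantile normalisation called 3 regions better and 6 worse at an adjusted p of 0.05 in limma, and a mean-variance trend, chosen after seeing the data, called 33 and 44. The causes were not tested. With the replicate number as a replicate block, limma called 0 in either direction (697 better and 647 worse at an unadjusted p under 0.05), as did each library left out. Without the long arm of chromosome 11, also chosen afterwards, 1078 regions and 169 genes were lost. Of the 45 promoters whose rank change was compared, 43 to 45 kept its direction with 1 library left out. A promoter whose lines did not overlap could hardly change direction in this way, and many were named for that reason. The count is therefore no measure of how stable the changes were. HSPA6 and IPO13, whose lines overlapped, were among those that changed direction.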
